A study of Mus musculus with 5 samples.

Results

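The 9 genes described here encode the pore-forming subunits of the AMPA and kainate receptors, Gria1 to Gria4 and Grik1 to Grik5. They were chosen by symbol, as every probe whose annotated gene is one of these 9. This gave 21 probes of the 32042 probes annotated to 1 gene, and 9 of 19087 named genes. Expression was compared on 5 arrays, each carrying 2 dyes, between the hippocampal pyramidal layer of male CD1 pups on postnatal day 3 (P3) whose mothers had received cocaine and that of pups whose mothers had received saline. The dams were injected subcutaneously with 20 mg/kg cocaine hydrochloride 2 times a day from gestational day 8 to 19, or with saline on the same schedule. Control dams were pair-fed, all litters were raised by surrogate mothers, and 10 litters per group entered the study. The tissue was cut out of frozen sections with a laser, and each array set 1 RNA from the cocaine side against 1 from the saline side.

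AMPA and kainate receptors are cation channels built of 4 subunits and opened by glutamate. AMPA receptors carry most of the fast excitatory current of pyramidal neurons, and the subunit GluA2, made from Gria2, lowers their calcium permeability once its RNA has been edited. Kainate receptors act on both sides of hippocampal synapses. Grik1, Grik2 and Grik3 encode the low-affinity subunits that form channels on their own, whereas Grik4 and Grik5 encode the high-affinity subunits, which work only together with a low-affinity one.

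The deposited value of each probe was a log2 ratio between the dyes. The saline RNA carried Alexa 546 and the cocaine RNA Alexa 647 on all 5 arrays, so that dye and treatment cannot be told apart. No source used here names the dye in the numerator. Positive values were read as higher on the cocaine side, which is likely from the order of the channels but not stated. Each array was centred on the median of its measured features, and all values below are centred log2 ratios unless stated, averaged over the probes of a gene. The median before centring lay between -2.68 and 0.26. Arrays 1 and 2 measured 39470 and 38208 of 44290 features, arrays 3 and 4 measured 36009 and 33611, and array 5 measured 19745. Some values equalled, at 3 decimals, the log2 of a ratio of 2 whole numbers, neither above 30. They made up 34.0% and 38.2% of the measured values on arrays 1 and 2 but between 85.8% and 86.7% on arrays 3 to 5. Such values are called ratios of small whole numbers below, although a match can also arise by chance, at a rate not worked out here. The labels give 10 litters per group but do not say that the arrays came from different litters, so the p-values rest on array-to-array spread alone, and this spread may be technical. Ratios hold no level of either group, so neither the presence of pyramidal cell transcripts nor the order of expression among subunits could be read from them. In bulk tissue, fewer cells of a type and less RNA per cell cannot be told apart.

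The study that produced these arrays examined DNA methylation at CpG islands, and the arrays themselves measured no methylation. For context, the promoters of the high-affinity kainate subunits are shown because Grik5 was the member with the highest mean and Grik4, its closest relative by role, was not. Each is the stretch of 250 bases before the annotated start in RefSeq (GRCm38.p6), written 5′ to 3′ on the strand of the gene, with every CG dinucleotide in capitals. The promoter of Grik5 lies at chr7:25072370-25072619 and that of Grik4 at chr9:42944372-42944621, both on the minus strand.
Grik5: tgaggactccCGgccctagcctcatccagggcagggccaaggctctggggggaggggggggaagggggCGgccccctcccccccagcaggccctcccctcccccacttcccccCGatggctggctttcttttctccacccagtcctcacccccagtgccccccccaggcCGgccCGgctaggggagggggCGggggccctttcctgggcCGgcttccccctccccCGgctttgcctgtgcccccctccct
Grik4: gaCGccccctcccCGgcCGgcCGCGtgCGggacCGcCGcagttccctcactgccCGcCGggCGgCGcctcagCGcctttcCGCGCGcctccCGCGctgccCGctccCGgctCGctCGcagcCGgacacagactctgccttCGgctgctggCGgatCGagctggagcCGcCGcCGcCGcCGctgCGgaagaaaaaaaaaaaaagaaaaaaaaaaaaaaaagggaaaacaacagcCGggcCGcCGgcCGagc
The Grik5 stretch held 8 CG dinucleotides, more than 57.0% of 32851 promoters of this length, at a GC content of 75.2%. The Grik4 stretch held 36, more than 97.4% of those promoters, at a GC content of 69.6%. Among the other members with an entry, Gria2 had 19, Gria4 had 16, Grik2 had 20 and Grik3 had 42, where the median promoter had 6. The motif GGGCGG (a GC box, searched on both strands) occurred 2 times in the Grik5 stretch, 1 time in that of Grik4 and 6 times in that of Grik3, and it was present in 32.7% of all promoters. These matches describe the letters of the windows alone. Gria1, Gria3 and Grik1 had no entry in the table used.

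Of the 9 subunit genes, Grik5 alone passed the threshold, and it was higher on the cocaine side. The other 8 did not pass in either direction. Across everything measured on 3 or more arrays, 1976 of 28035 genes and unnamed features passed (7.05%), of which 1651 were higher (5.89%) and 325 were lower (1.16%). The 1 call among 9 members stands beside that background. An unadjusted p under 0.05 was common, at 6666 of 28035 (23.8%), and the counts at that level given below for lists should be read against that share. Without centring the calls were 63 higher and 8111 lower, and with centring on ribosomal protein genes 39 higher and 19277 lower, so the direction of every call is relative to the array median. All 9 members were measured on at least 4 arrays and entered the test. Their median was -0.33, beside -0.14 for everything tested. Gria1 had the second highest mean, and the remaining 7 had means between -0.63 and -0.10, with 95% confidence intervals (limma) that all included 0.

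**Figure D1:**
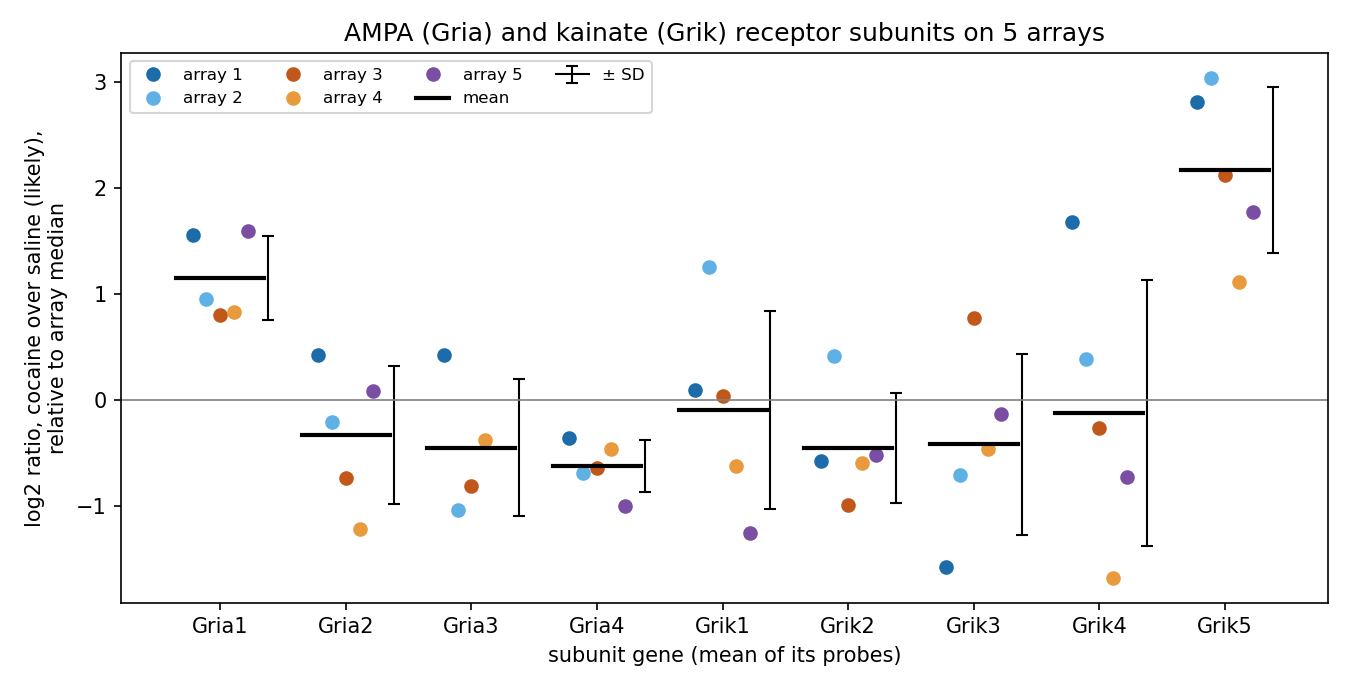
Centred log2 ratio (vertical axis, cocaine over saline as the likely direction) of each subunit gene (horizontal axis) on arrays 1 to 5; points are arrays, thick lines means and bars ± SD over the arrays that measured the gene. Grik5 lay between 1.11 and 3.04 and Gria1 between 0.80 and 1.60, all above 0, Gria4 lay below 0 on every array, and the other 6 genes had values on both sides of 0.

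Among the AMPA receptor genes, Gria1 encodes GluA1, the subunit that is recruited to hippocampal synapses during plasticity. Its log2 ratio was 1.56, 0.95, 0.80, 0.83 and 1.60 on arrays 1 to 5. All 5 values were above the array medians. The mean was 1.15 ± 0.40 (SD, n = 5), or 2.22-fold, with a limma standard error of 0.42 and an adjusted p of 0.114. Flipping the signs of the arrays in every combination, an exact permutation test (two-sided), gave p = 0.063, the smallest that 5 arrays allow. Gria1 therefore did not pass at the level of the gene. On single arrays it lay above 67.7% to 88.7% of the named genes, and its mean lay above that of 86.6% of them.

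Gria2 encodes the calcium-limiting subunit GluA2. Its log2 ratio was 0.42, -0.21, -0.74, -1.22 and 0.08 on arrays 1 to 5, with a mean of -0.33 ± 0.65 (SD, n = 5) and an adjusted p of 0.682 (limma). Arrays 1 and 5 were above 0 and arrays 2 to 4 below. The interval ran from -1.27 to 0.60, so that neither a fall to 0.414-fold nor a rise to 1.52-fold was outside it.

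Gria3 encodes GluA3, which pairs mainly with GluA2 in hippocampal pyramidal neurons. It was 0.42, -1.05, -0.82 and -0.38 on arrays 1 to 4 and was not measured on array 5. The mean over those 4 arrays was -0.46 ± 0.65 (SD), with an adjusted p of 0.615 (limma). Array 1 was the only one above 0.

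Gria4 encodes GluA4, which in the hippocampus is known from immature pyramidal neurons and from interneurons. Its log2 ratio was -0.36, -0.69, -0.64, -0.46 and -1. These were the least scattered values of the family, all below 0, with a mean of -0.63 ± 0.25 (SD, n = 5). The adjusted p was 0.377 (limma) and the sign-flip permutation test gave its smallest possible p of 0.063. Averaged over its 5 probes, Gria4 thus had a small difference of constant sign that did not pass across all genes, and its interval reached from -1.52 to 0.26. The probes did not share that sign, as 1 of them lay above 0 on 3 of its 4 arrays. The value on array 5 rested on 1 probe alone.

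Among the kainate receptor genes, Grik1, which encodes the low-affinity subunit GluK1, was 0.10, 1.25, 0.03, -0.63 and -1.26 on arrays 1 to 5, with a mean of -0.10 ± 0.94 (SD, n = 5). Arrays 1 to 3 were above 0 and arrays 4 and 5 below, so no common direction appeared. Grik2 encodes GluK2, the main low-affinity subunit of hippocampal pyramidal neurons. It was -0.58, 0.41, -0.998, -0.60 and -0.53, with array 2 alone above 0, and its mean was -0.46 ± 0.52 (SD, n = 5). Grik3, which encodes the third low-affinity subunit GluK3, was -1.58, -0.71, 0.78, -0.47 and -0.13, with array 3 alone above 0 and a mean of -0.42 ± 0.86 (SD, n = 5). The adjusted p-values of the low-affinity genes lay between 0.546 and 0.922 (limma).

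Grik4 encodes GluK4, a high-affinity subunit found in CA3 pyramidal neurons. Its 1 probe was 1.68, 0.39, -0.27, -1.68 and -0.73 on arrays 1 to 5. Arrays 1 and 2 were above 0 and arrays 3 to 5 below, and the mean of -0.12 ± 1.26 (SD, n = 5) had the widest scatter of the family. All 5 of its values were ratios of small whole numbers.

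Grik5 encodes GluK5, the other high-affinity subunit, which joins GluK2 in the receptors of mossy fibre synapses. Its 1 probe was 2.81, 3.04, 2.12, 1.11 and 1.77 on arrays 1 to 5. The values on arrays 1 and 2 matched ratios of small whole numbers. Grik5 was the highest of the 9 genes on every array. The mean was 2.17 ± 0.78 (SD, n = 5), or 4.50-fold above the array median with an interval from 2.31-fold to 8.76-fold, a limma standard error of 0.45 and an adjusted p of 0.0143. By unadjusted p it stood at rank 479 of everything tested. The sign-flip permutation test, which 5 arrays limit to 0.063, gave that value. Grik5 lay above 94.1% to 97.7% of the named genes on arrays 1 to 3, and above 78.3% and 91.7% on arrays 4 and 5.

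As deposited, without centring, Grik5 was 0.13, 0.52, 1.75, 0.33 and 2.03 on the 5 arrays. These values were above 0 on every array too, with a mean of 0.95 and an adjusted p of 0.289, where the median of everything tested was -1.52. Gria3, Gria4, Grik1, Grik2 and Grik4 were below 0 on every array that measured them in that form. The call of Grik5 therefore concerns its place relative to the rest of the array. Without array 1 or array 2, Grik5 no longer passed (adjusted p of 0.067 and 0.0651), although its mean stayed at 2.01 and 1.95. Over everything tested, the calls fell from 1976 to 64 without array 1 and to 76 without array 2. Losses of a call in these 2 settings, here and below, should be read against that fall. The same holds with values of exactly 0 kept, where 62 of 31330 passed. It also holds for higher genes without centring, where 63 of 28035 were higher.

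Among the 8 members measured on all 5 arrays, 3 kept 1 sign throughout, Gria1 and Grik5 above 0 and Gria4 below. Of 9140 named genes measured on all 5 arrays, 27.9% did so, 21.7% above and 6.18% below. With 8 members, that count does not set them apart from the named genes. Array by array, 6 of 9 members were above 0 on array 1, 5 on array 2, 4 on array 3 and 2 on array 4, and 3 of 8 on array 5. The gap between the highest and the lowest member ran from 2.79 on array 4 to 4.39 on array 1. While Grik5 was the top member each time, the lowest was another gene on each array, namely Grik3, Gria3, Grik2, Grik4 and Grik1 in turn. The mean over arrays 1 and 2 and that over arrays 3 to 5 were 2.92 and 1.67 for Grik5, 1.26 and 1.08 for Gria1, and -0.52 and -0.70 for Gria4. For Grik1 they were 0.67 and -0.62, and for Grik4 1.03 and -0.89, so that these genes changed side between the sets of arrays. On arrays 3 to 5 alone no member passed, and of 12689 genes and unnamed features tested with limma none did, while 2722 had an unadjusted p under 0.05.

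**Figure D2:**
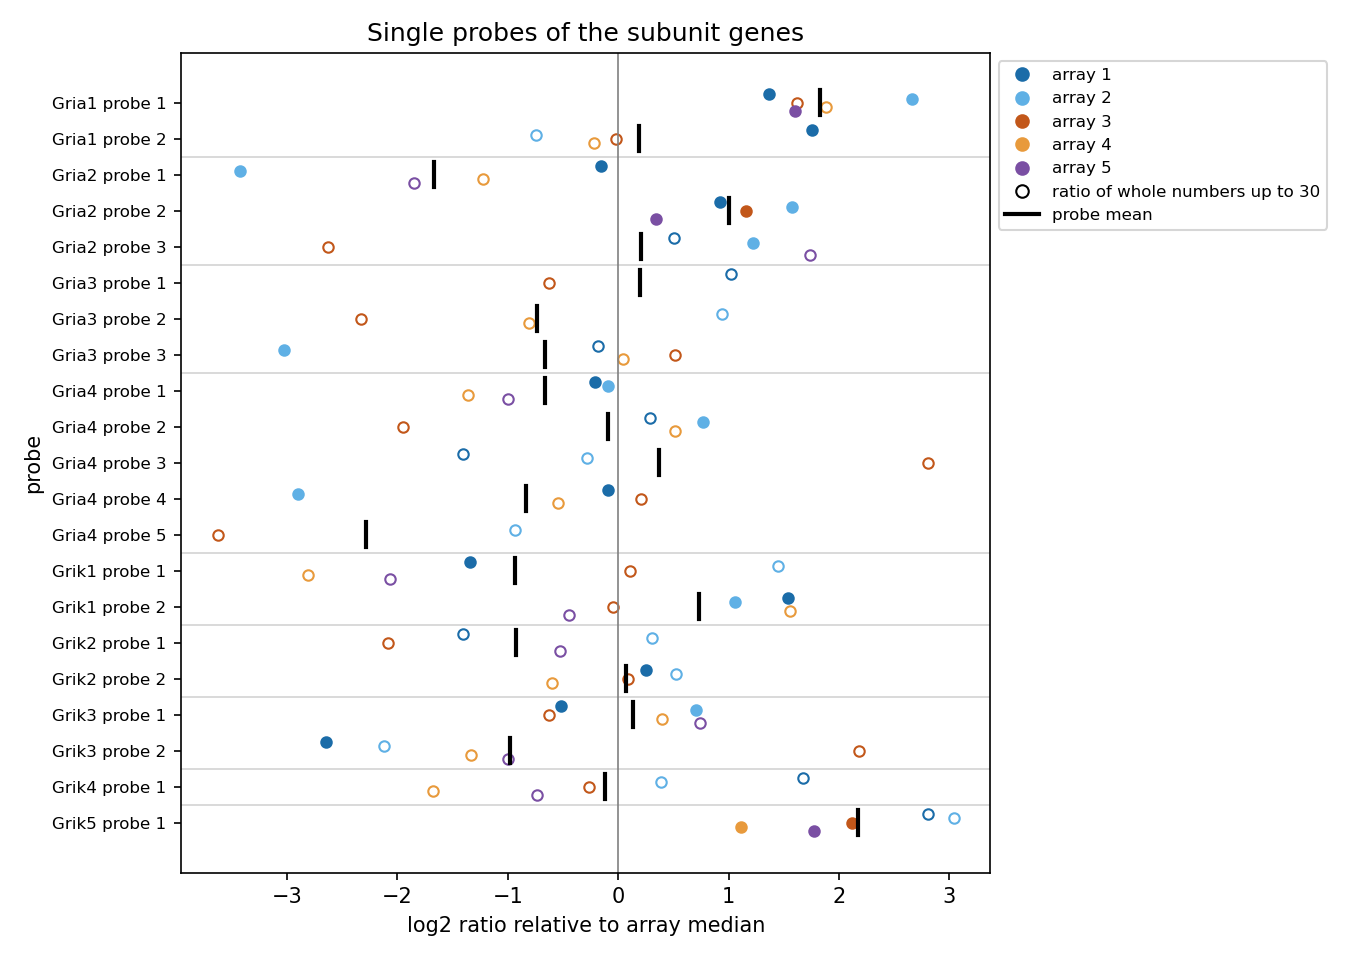
Centred log2 ratio (horizontal axis) of each of the 21 probes (vertical axis, numbered within a gene) on arrays 1 to 5; open points are ratios of whole numbers up to 30 and vertical ticks are probe means. The first Gria1 probe and the Grik5 probe lay above 0 on all 5 arrays, while 6 genes had probe means on both sides of 0.

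Different probes of a gene often disagreed. Of 105 possible probe values 85 were measured, and 58 of those were ratios of small whole numbers. Of the 7 genes with more than 1 probe, 6 had probe means of both signs, with Gria1 the exception. Fitted on their own, 2 of the 19 member probes that could be tested passed, both higher, against 6.36% of 38953 features that passed as higher. These were the Grik5 probe and 1 of the 2 Gria1 probes. That Gria1 probe was 1.36, 2.66, 1.62, 1.88 and 1.60 on the 5 arrays, with a mean of 1.82 ± 0.50 (SD) and an adjusted p of 0.0251 (limma). The other Gria1 probe was 1.75, -0.75, -0.02 and -0.22 on arrays 1 to 4, with a mean of 0.19 ± 1.09 (SD) and an adjusted p of 0.875. The average over both probes thus joined 1 that passed and 1 that did not and was widely scattered. On array 1 the second probe was the higher, at 1.75 against 1.36.

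The probes of Gria2 pulled in opposite directions. Of its 3 probes, 1 was below 0 on all 4 arrays that measured it, with a mean of -1.66 ± 1.37 (SD, adjusted p of 0.102, limma). Another was above 0 on all 4 of its arrays, with a mean of 1.00 ± 0.51 (SD, adjusted p of 0.278). The value of Gria2 on array 4 rested on the first of these alone. The probes of Gria4 had means of -0.67, -0.10, 0.37, -0.83 and -2.28, the last over 2 arrays. Those of Grik1 had means of -0.93 and 0.73, those of Grik2 -0.93 and 0.07, and those of Grik3 0.14 and -0.98. The annotation does not say which transcript form each probe reads, so splice forms and failed probes cannot be told apart here.

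The kind of value moved with its sign on arrays 3 to 5. There, all 6 member values that were not ratios of small whole numbers were above 0, 3 of them of Grik5, 1 of Gria1 and the other 2 of Gria2, whereas 14 of 40 that were such ratios lay above 0. Over all features of those arrays the shares above 0 were 88.5% and 43.6%. On arrays 1 and 2 the member shares were 11 of 21 and 11 of 18. With the small whole-number ratios left out, 3 members could be tested. Grik5 then had a mean of 1.67 (adjusted p of 0.0302, limma) and Gria1 of 1.94 (adjusted p of 0.0169), where the median of everything tested had moved to 1.37. In that setting 2614 of 5222 genes and unnamed features passed, 2521 of them higher, so these calls do not set the 2 genes apart. The part that the kind of value played in these results was not tested.

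Subunits of the same receptor family were next compared with each other on the same array, since such a difference does not depend on where the array is centred. It says that the ratios of the paired genes were unequal, not which of them moved. Of 8 pairs, 4 lay on 1 side of 0 on every array that measured both genes. None passed after adjustment over the 8 pairs, and none could have. The smallest p of the sign-flip test is 0.063 with 5 arrays and 0.125 with 4. Gria2 minus Gria1 was -1.14, -1.17, -1.54, -2.05 and -1.52 on arrays 1 to 5, with a mean of -1.48 ± 0.37 (SD, n = 5). The probe average of Gria2 was thus the lower on each array, but the probes disagreed. On array 2 those of Gria2 were -3.43, 1.575 and 1.219, and those of Gria1 2.659 and -0.749. For the averages, the exact permutation test by sign flips gave its smallest possible p of 0.063, which was 0.167 after adjustment. With the median of probes the mean was -1.13 and the permutation p was 0.125. Gria1 minus Gria3 was 1.14, 2.00, 1.62 and 1.21 on arrays 1 to 4, with a mean of 1.49 ± 0.40 (SD, exact permutation p = 0.125, the smallest for 4 arrays, and 0.25 adjusted).

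In the kainate receptor, Grik5 minus Grik2, the usual partners in pyramidal neurons, was 3.39, 2.63, 3.12, 1.71 and 2.30, with a mean of 2.63 ± 0.66 (SD, n = 5). Grik5 minus Grik4 was 1.13, 2.65, 2.38, 2.79 and 2.50, with a mean of 2.29 ± 0.67 (SD, n = 5). Both differences were above 0 on all 5 arrays, with an exact permutation p of 0.063 and 0.167 after adjustment.

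The other 4 pairs had values on both sides of 0. Gria2 minus Gria3 averaged 0.02 ± 0.68 (SD, n = 4), Gria2 minus Gria4 0.30 ± 0.73 (SD, n = 5), Grik2 minus Grik1 -0.36 ± 0.73 (SD, n = 5) and Grik2 minus Grik3 -0.03 ± 1.18 (SD, n = 5). Their exact permutation p-values lay between 0.375 and 0.938. At this spread no difference could be shown, and the scatter does not show that these subunits behaved alike.

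**Figure D3:**
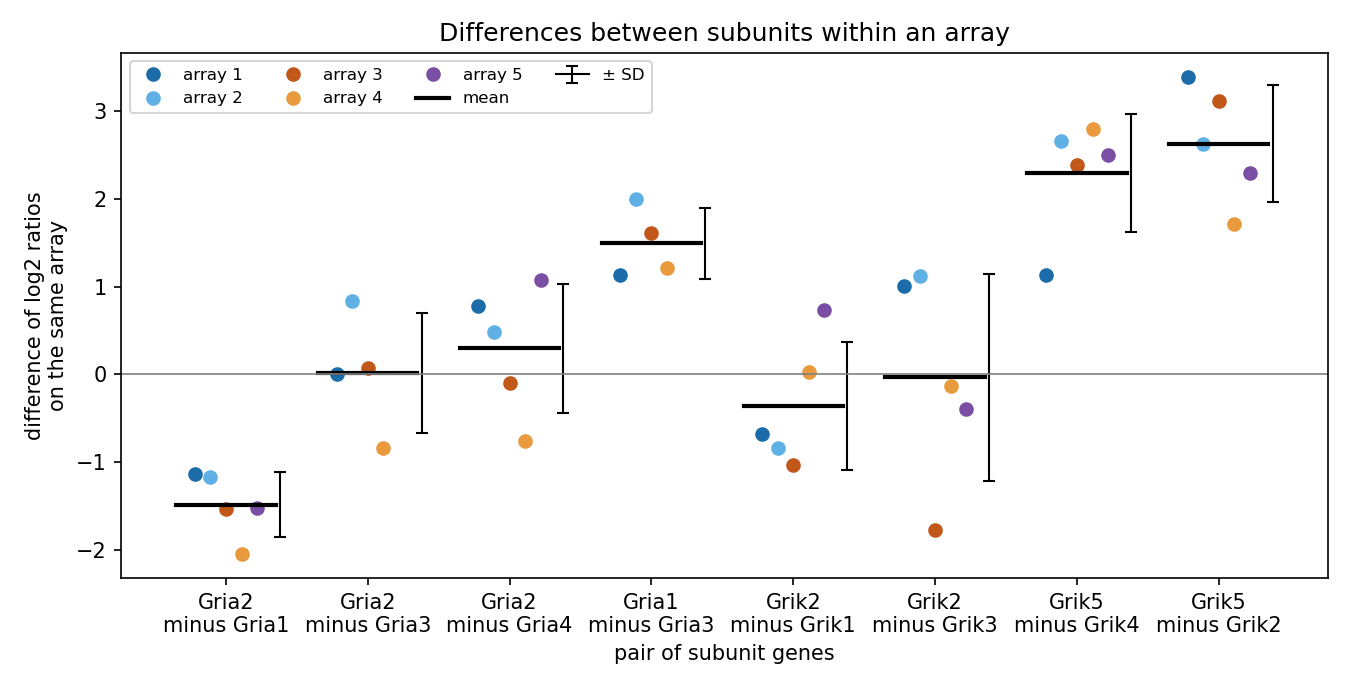
Difference of log2 ratios between 2 subunit genes on the same array (vertical axis) for the 8 pairs compared (horizontal axis); points are arrays, thick lines means and bars ± SD. Gria2 minus Gria1 lay below 0, and Gria1 minus Gria3, Grik5 minus Grik4 and Grik5 minus Grik2 above 0, on every array with both genes measured, whereas the other 4 pairs had values on both sides of 0.

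Proteins that accompany AMPA receptors were then examined. TARPs (the Cacng genes), cornichons and Shisa proteins bind the receptor and set its surface delivery and gating. Of 12 listed, 10 were tested, 1 was higher and none lower, beside 5.89% higher and 1.16% lower over everything tested. Their median was 0.34. Cnih2, a cornichon that escorts AMPA receptors out of the endoplasmic reticulum and slows their closing, was the one that passed. It was 3.35, 3.92, 1.84, 1.54 and 3.10, with a mean of 2.75 ± 1.01 (SD, n = 5) and an adjusted p of 0.0116 (limma). It did not pass without array 1 or 2 (0.0649 and 0.0614), without centring (0.0939) or with zeros kept (0.0733). The TARP genes Cacng4 and Cacng2 (stargazin), named here after their values were seen, were above 0 on all 5 arrays and did not pass. Cacng4 had a mean of 1.59 ± 0.98 (SD, n = 5, adjusted p of 0.0556) and Cacng2 of 1.30 ± 0.63 (SD, n = 5, adjusted p of 0.0875). The other tested TARP genes were Cacng3 (-0.74 ± 1.03, SD, n = 5), Cacng7 (-0.14 ± 0.74, SD, n = 5) and Cacng8 (0.10 ± 0.82, SD, n = 4). None of these passed, and each had arrays on both sides of 0, so the TARP genes did not move as one. Shisa6 was not analysed here and Cacng5 was measured on too few arrays.

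Of the kainate receptor's own auxiliary subunits, Neto1 and Neto2, neither passed (limma), and 1 had an unadjusted p under 0.05, again beside 23.8% of everything tested. Neto2 was -0.43, -1.20 and -4.33 on the 3 arrays that measured it, a mean of -1.99 ± 2.06 (SD, adjusted p of 0.128). Neto1 had a mean of -0.35 ± 0.48 (SD, n = 4, adjusted p of 0.708). Neto2 was below 0 on all 3 arrays but its values were far apart.

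Among 6 tested genes that assemble AMPA receptors or edit receptor RNA, 2 were higher and none lower, with a median of 0.45. Over everything tested, 5.89% were higher and 1.16% lower. Porcn, an acyltransferase of the endoplasmic reticulum that also acylates Wnt proteins, was 2.03, 2.37, 2.25, 1.82 and 2.36, an even set of values with a mean of 2.16 ± 0.24 (SD, n = 5) and an adjusted p of 0.0129 (limma). Sacm1l, a phosphoinositide phosphatase of the endoplasmic reticulum, was 3.39, 0.42, 2.31 and 1.95 on arrays 1 to 4, with a mean of 2.02 ± 1.23 (SD) and an adjusted p of 0.0444. Leaving out array 1 or array 2 took the call from Porcn (adjusted p of 0.0649 and 0.0614), and leaving out any of arrays 1 to 4 took it from Sacm1l (0.18, 0.062, 0.103 and 0.1). Neither passed without centring (0.292 and 0.678) or with zeros kept (0.0733 and 0.24). Adarb1, the enzyme that edits the Gria2 transcript and which is named after its values were seen, had a mean of -0.06 ± 1.21 (SD, n = 5) and an adjusted p of 0.954. Frrs1l was not analysed here.

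The 14 tested scaffold and trafficking genes, which hold AMPA receptors at the synapse, had a median of 0.24. None passed with limma, and 2 had an unadjusted p under 0.05, against 23.8% of everything tested. Nptxr, the neuronal pentraxin receptor, had a mean of 1.08 ± 0.67 (SD, n = 5, adjusted p of 0.152), with all 5 arrays above 0. Camk2a, the kinase that phosphorylates GluA1 in long-term potentiation, had a mean of 1.43 ± 1.64 (SD, n = 4, adjusted p of 0.175) and ranged from 0.17 to 3.82. Nptx2 and C1ql3 were measured on too few arrays.

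The other glutamate receptors are set beside the AMPA subunits (median -0.39, 0 of 4 passing with limma and 1 at an unadjusted p under 0.05, a share of 23.8% over everything tested) and the kainate subunits (median -0.12, 1 of 5 passing). The lists were not tested against each other. Of 6 NMDA receptor subunits, 1 was higher and 1 lower, with a median of -0.06. All these counts stand beside 5.89% higher and 1.16% lower over everything tested. Grin2d, an NMDA subunit of early development and of interneurons, was 3.32, 4.89, 1.49, 1.71 and 2.07, with a mean of 2.70 ± 1.42 (SD, n = 5, adjusted p of 0.0131, limma). Grin2a, the subunit that increases as synapses mature, was -1.21, -1.23, -2.33 and -3.31 on arrays 1 to 4, with a mean of -2.02 ± 1.01 (SD, adjusted p of 0.0368). Grin2d did not pass without array 1 or 2 (0.0649 and 0.062), without centring (0.105) or with zeros kept (0.0752), and Grin2a did not pass without any 1 of arrays 1 to 4 (0.075, 0.0709, 0.0907 and 0.144) or with zeros kept (0.121). No AMPA or kainate subunit was lower in this sense. None of 7 metabotropic receptors passed (limma, 1 at an unadjusted p under 0.05, where 23.8% of everything tested was, and median 0.65), the smallest p-values being those of Grm2 (-1.32 ± 0.41, SD, n = 4, adjusted p of 0.117) and Grm4 (1.10 ± 1.19, SD, n = 4, adjusted p of 0.245). Grid1, a delta receptor subunit that is counted with this family but is not gated by glutamate in the usual way, had a mean of 0.46 ± 0.77 (SD, n = 5, adjusted p of 0.566).

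The markers of cells that a cut through the pyramidal layer could hold gave the following values. Of 7 pyramidal neuron markers tested, 1 was higher, Slc17a6, a vesicular glutamate transporter, with 1.87 ± 0.84 (SD, n = 4, adjusted p of 0.0443, limma). The median of the list was 0.44. This count and those of the marker lists below stand beside 5.89% higher and 1.16% lower over everything tested. Slc17a6 no longer passed without array 1, 2 or 3 (adjusted p of 0.161, 0.0926 and 0.118). In the same list Slc17a7, the main vesicular glutamate transporter of mature pyramidal neurons, had a mean of -0.53 ± 1.31 (SD, n = 4), and Zbtb20, a transcription factor of the hippocampus, had a mean of -0.51 ± 0.62 (SD, n = 5) with all 5 arrays below 0. Neither passed, and both are named after their values were seen. None of 9 interneuron, 7 astrocyte, 7 oligodendrocyte lineage, 4 microglial, 5 endothelial or 3 dentate granule markers passed, and 4, 3, 1, 0, 2 and 0 of them had an unadjusted p under 0.05, where 23.8% of everything tested did. Their medians were 0.76, 0.44, -0.08, -0.34, -0.84 and 0.23, beside -0.04 for all named genes tested. Of 3 red cell markers, the alpha globin genes Hba-a1 and Hba-a2, near-identical copies that probes may not separate, were both higher, at 3.26 ± 1.74 and 3.26 ± 1.73 (SD, n = 5, adjusted p of 0.0122 each). They lay above 0 on every array, as did Grik5, and neither passed without array 1 or without array 2 (adjusted p of 0.0649 and 0.0614 for each). The third red cell marker, Alas2, the enzyme that begins haem synthesis in red cells, did not pass. It was 1.27, -2.28, 0.86 and -2.92 on arrays 1 to 4, a mean of -0.77 ± 2.14 (SD), so the list did not move as one. Their part in the ratios of the receptor genes was not tested.

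The genes whose profiles lay nearest to those of Grik5 and Gria1 were found among 9139 others measured on all 5 arrays, by the root mean square difference of the log2 ratios over the 5 arrays. For Grik5 these were Vwa5b1 (0.15), Pfdn2 (0.16) and Gnb2 (0.21), with means of 2.10, 2.29 and 2.19. All passed the threshold. None of them did without array 1 or without array 2, where the calls over everything tested fell from 1976 to 64 and 76. For Gria1 they were Agpat1 (0.20), 1110038B12Rik (0.21) and Ctsb (0.22), with means of 1.33, 1.11 and 1.31, and none passed. The measure describes likeness over 5 arrays that share their centring, with no test. These genes were picked for values close to those of Grik5 or Gria1 on the same arrays. Whether they passed, and where they lost the call, followed largely from that choice and adds nothing on either gene.

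How far the leading members depended on the choices made is shown for Grik5 and Gria1. Under 21 other settings, Grik5 stayed above 0 in each, from 0.15 to 2.92, and passed in 13. Of these, 12 were among the 20 settings with adjusted p-values and 1 was a one-sample test without empirical Bayes, before adjustment. The paper states no such test for these arrays. Grik5 did not pass without centring, with centring on ribosomal protein genes, or with exact zeros kept (with or without the ceiling value). Nor did it pass without array 1, without array 2, on arrays 3 to 5 alone, or in the one-sample test after adjustment. Gria1 passed in 2 of the 20 adjusted settings, with small ratios left out and with 1 probe per gene. It also passed in the one-sample test before adjustment. It fell below 0 in 2 settings, at -0.07 without centring and at -0.87 with centring on ribosomal protein genes.

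**Figure D4:**
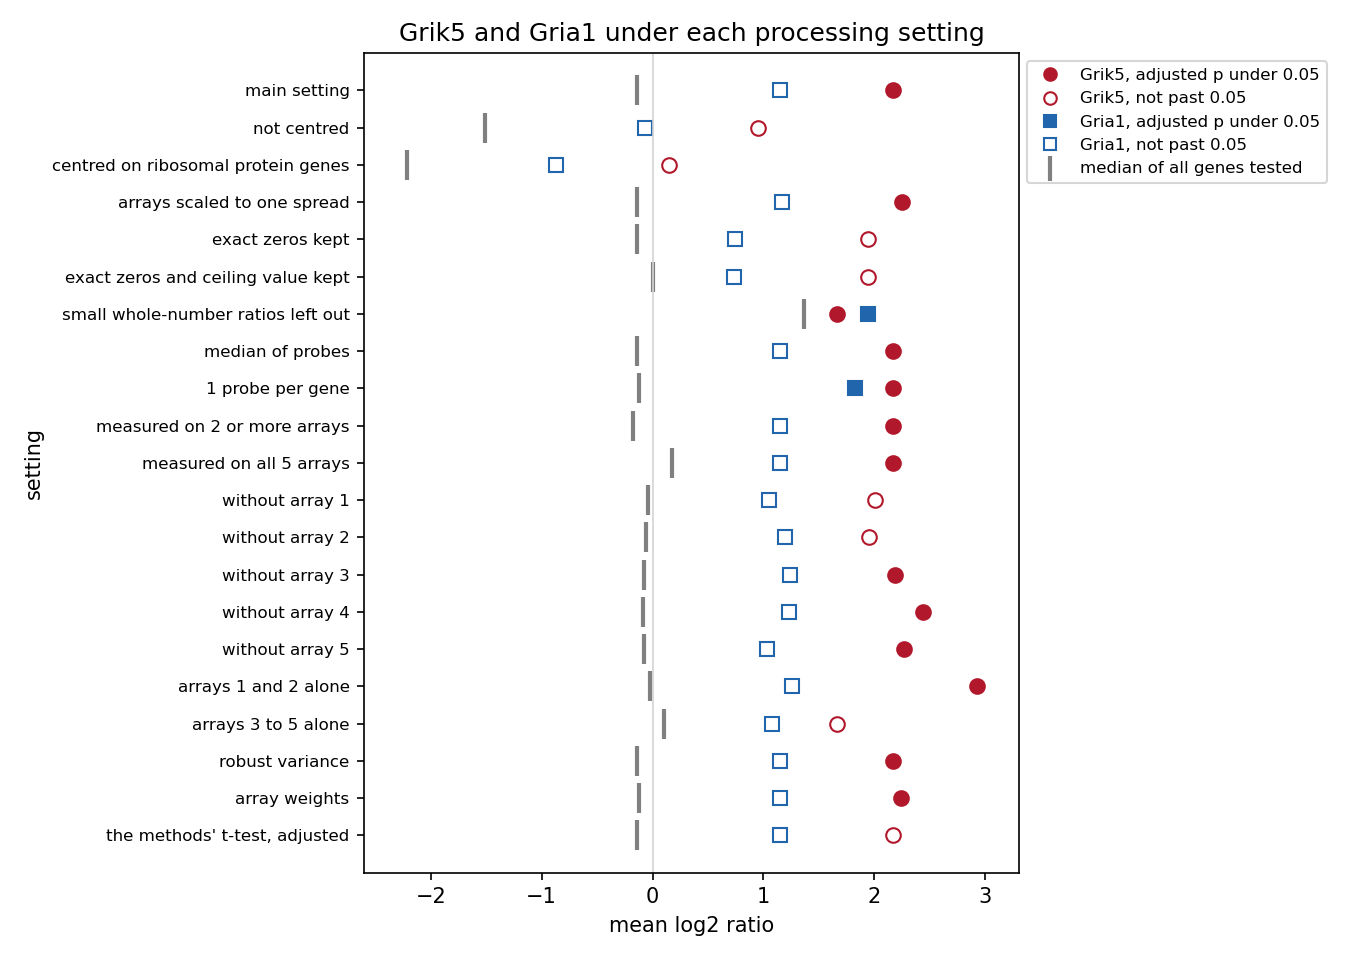
Mean log2 ratio (horizontal axis) of Grik5 (circles) and Gria1 (squares) under the processing settings (vertical axis); filled symbols passed an adjusted p of 0.05 and grey ticks mark the median of everything tested. Grik5 lay above the tick in every setting, while its distance from 0 shrank to 0.15 when the arrays were centred on ribosomal protein genes.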

How the data were processed

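Total RNA from laser-dissected P3 pyramidal layer was labelled with dye-carrying dendrimers and hybridised to 5 arrays of 2 colours. The authors deposited 1 table of log2 ratios per feature and array; image reading, background removal and normalization are not given in the sources used here, and no intensities were used. Recurring ratios of small whole numbers gave the base of the logarithm. Values of exactly 0 and of 16.61, a ceiling equal to the log2 of 100000, counted as not measured. Each array was centred on its median, the probes of a symbol were averaged (31906 probes matched by gene identifier, 136 kept the platform's symbol), and genes or unnamed features measured on 3 or more arrays were fitted with limma 3.58.1 (R 4.3.3; intercept alone, empirical Bayes, Benjamini-Hochberg over everything tested, threshold 0.05). The fit was tested on simulated data. Single genes and 8 pairs were also given exact sign-flip permutation tests. The members and lists were chosen with earlier results of these data known. Named genes were all members; of each other receptor list those past the threshold, or the 2 with the smallest p; of cell markers, in a narrowing made later, only those past the threshold; and the 3 nearest profiles of the 2 leading members. Alternatives covered centring, scaling, zeros, small ratios, probe handling, arrays left out and other tests.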

Additional observations from a re-analysis of the deposited data

Results flagged for a closer look

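Of 37 groups of values examined for a value far from the others, 1 held such a value, while chance alone gives about 1 in 20. It was Grik5 minus Grik4 on array 1, at 1.13, where the other arrays lay between 2.38 and 2.79. On that array Grik4 stood at 1.68, its highest value, and Grik5 at 2.81. Both values were ratios of small whole numbers.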

How the results depend on the processing

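The count of 1976 calls over all genes moved to 8174 without centring, 19316 with centring on ribosomal protein genes and 62 with exact zeros kept. With zeros and the ceiling value kept it was 0 (3740 at an unadjusted p under 0.05). With each feature fitted on its own (chosen after seeing the data) it was 2993, and on arrays 3 to 5 alone 0. In the one-sample t-test it was 1 after adjustment and 5295 before it. Leaving out 1 array gave 64 to 1950 calls, the fewest without array 1 (64) and array 2 (76). Of the members, 7 were called with centring on ribosomal protein genes, all lower, 0 with zeros kept and 0 with zeros and ceiling kept. With small ratios left out 2 were called, where 2614 of 5222 genes and unnamed features were. With 1 probe per gene 2 were called, where 2462 of 28001 were. Both times these were Gria1 and Grik5. There were 0 on arrays 3 to 5 alone, 0 in the adjusted and 3 in the unadjusted t-test, and 0 to 1 with 1 array left out. Without centring the 1 member called was Gria4, not Grik5, at -1.85. The cause of these shifts was not tested.

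The sign changed as follows. Without centring, Gria1 was -0.0696, Nptxr -0.14, Camk2a -0.16, Grid1 -0.76, Grm4 -0.49 and 1110038B12Rik -0.11. With centring on ribosomal protein genes, where the median of everything tested was -2.21, Gria1 was -0.87, Sacm1l -0.0891, Nptxr -0.94, Camk2a -0.68, Grid1 -1.56, Grm4 -1.01, Slc17a6 -0.24, Agpat1 -0.69, 1110038B12Rik -0.91 and Ctsb -0.71. Gria2 was 0.42 with small ratios left out, 0.0221 with the median of probes and 0.11 on arrays 1 and 2, where Grik1 was 0.67 and Grik4 1.03. Array weights gave Grik4 0.0756. With 1 probe per gene Grik3 was 0.14 and Grid1 -0.19, and on arrays 3 to 5 they were 0.0583 and -0.0432. Neto1 was 1.10 with zeros and ceiling kept. Gria2 minus Gria3 was -0.0421 with zeros kept, -0.0421 with the ceiling kept too, -0.55 with 1 probe per gene and -0.38 on arrays 3 to 5, and Gria2 minus Gria4 -0.998 with 1 probe per gene. Grik2 minus Grik3 was 0.0359 with arrays scaled to one spread, 0.13 with zeros kept, 0.13 with the ceiling kept too and 1.06 on arrays 1 and 2. With 1 array left out, Grik1 ran from -0.44 to 0.19, Grik4 from -0.57 to 0.27, Gria2 minus Gria3 from -0.25 to 0.30 and Grik2 minus Grik3 from -0.32 to 0.40. The mean of Gria2 minus Gria1 kept its sign in 13 of 13 alternatives, and those of Gria1 minus Gria3, Grik5 minus Grik4 and Grik5 minus Grik2 in 12 of 12 each. A kept sign of the mean does not say that every array kept it. The number of arrays limits the precision throughout.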
